A study of Mus musculus with 6 samples.

Results

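The genes described here are 35 genes of glycolysis and of the cellular response to low oxygen, chosen by name: glucose and lactate transporters, the glycolytic enzymes, the enzymes that decide the fate of pyruvate, hypoxia response genes and the alpha subunits of the hypoxia-inducible factor HIF. Of the 35, 30 had a probe set paired with their symbol alone and were analysed, among 22180 genes of the array; Gpi1, Aldoa, Eno1, Bnip3l and Ankrd37 were not analysed. They were measured on Affymetrix Mouse Gene 2.0 ST arrays in KP1 cells, a line of mouse small cell lung cancer from a model in which Rb, p53 and p130 are all knocked out, so every sample lacks these 3 genes. The control group had 3 arrays of cells transfected with the ires-GFP vector alone. The N1ICD group had 3 arrays of cells transfected with Notch1-ICD-ires-GFP, which adds the intracellular domain of Notch1, the active form of this receptor. Both groups were sorted for GFP+ cells at 48 hours, so untransfected cells were removed but the level of the transgene per cell was not fixed. All samples come from 1 cell line, and the labels call the 3 samples of a group biological replicates without saying how the cultures were separated. Values are log2 expression values, in which a difference of 1 is a doubling of the signal.

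Glycolysis splits glucose into pyruvate in the cytosol and yields ATP without oxygen. When oxygen is scarce, the HIF alpha subunits escape hydroxylation and degradation, pair with ARNT and raise the transcription of glucose transporters, glycolytic enzymes, the lactate exporter Slc16a3, pyruvate dehydrogenase kinases and stress genes such as Bnip3 and Ddit4. Tumour cells often run glycolysis at a high rate with oxygen present. Small cell lung cancer is a fast-growing neuroendocrine tumour in which active Notch switches part of the cells to a less neuroendocrine state.

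HIF binds a short element with the core ACGTG or GCGTG, so the promoter sequences of 5 genes are shown to let a reader see where these letters lie: Ddit4, the one listed gene that passed the test; Bnip3 and Pgk1, textbook HIF targets whose values spread widely between arrays; and P4ha2 and Aldoc, hypoxia-pathway genes outside the 35 that rose. Each is the 200 bases before the annotated start, 5′ to 3′ along the gene, from RefSeq on GRCm38.p6. They are chr10:59951771-59951970 on the minus strand for Ddit4, chr7:138909507-138909706 on the minus strand for Bnip3, chrX:106186900-106187099 on the plus strand for Pgk1, chr11:54100724-54100923 on the plus strand for P4ha2 and chr11:78322873-78323072 on the plus strand for Aldoc. All are upstream of the annotated gene. Capitals mark ACGTG and GCGTG on either strand, so CACGT and CACGC are the same motifs read from the other strand, and in Aldoc also TTCCCAC, the letters of an RBPJ type site, here on the other strand.
Ddit4: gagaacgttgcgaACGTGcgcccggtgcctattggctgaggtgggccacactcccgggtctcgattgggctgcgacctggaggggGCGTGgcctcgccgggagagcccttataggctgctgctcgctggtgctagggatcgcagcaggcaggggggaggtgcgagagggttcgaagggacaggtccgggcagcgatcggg
Bnip3: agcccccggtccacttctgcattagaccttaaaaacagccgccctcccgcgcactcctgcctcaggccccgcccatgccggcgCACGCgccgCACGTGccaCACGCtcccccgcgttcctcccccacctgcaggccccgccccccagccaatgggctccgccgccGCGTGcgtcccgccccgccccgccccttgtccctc
Pgk1: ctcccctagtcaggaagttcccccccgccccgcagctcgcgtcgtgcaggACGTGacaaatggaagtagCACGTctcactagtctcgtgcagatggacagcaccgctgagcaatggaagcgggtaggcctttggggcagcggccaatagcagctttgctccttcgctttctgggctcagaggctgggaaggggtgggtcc
P4ha2: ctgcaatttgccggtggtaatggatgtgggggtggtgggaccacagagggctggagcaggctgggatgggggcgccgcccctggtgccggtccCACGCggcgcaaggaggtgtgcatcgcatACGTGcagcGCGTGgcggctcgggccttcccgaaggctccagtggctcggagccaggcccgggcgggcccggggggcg
Aldoc: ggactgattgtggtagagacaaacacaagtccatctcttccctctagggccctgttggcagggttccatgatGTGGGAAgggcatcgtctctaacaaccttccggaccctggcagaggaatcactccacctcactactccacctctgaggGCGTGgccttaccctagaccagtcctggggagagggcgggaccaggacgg

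The Ddit4 window held ACGTG from 187 bases and GCGTG from 115 bases before the start. In Bnip3 a CACGTG, which contains ACGTG on both strands, began 108 bases before the start between 2 copies of GCGTG, and a further GCGTG began 35 bases before it. Pgk1 held 2 copies of ACGTG, beginning 150 and 131 bases before the start. Of the 30 analysed genes, 27 matched a promoter in the RefSeq table, with 35 promoters in all. In the 250 bases before the start, ACGTG or GCGTG on either strand was present for 25 of these 27 genes, and in 29 of their 35 promoters (82.9%) against 38.6% of all 32851 promoters of that length in the table. Taken alone, ACGTG was in 54.3% of the genes' promoters and in 16.6% of all promoters, and GCGTG in 54.3% and 28.2%. CACGTG, counted also under ACGTG, was in 17.1% against 6.02%, and TTCCCAC in 2.86% against 5.42%. Both short motifs contain the dinucleotide CG, and the genes' promoters held a median of 14 CG in these 250 bases against 6 in all promoters. A match of letters is a description of the window and does not show that a factor was bound there.

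Notch1 was higher in the N1ICD group. The parts of the transgene and of the cells' own Notch1 in this signal were not tested. The Notch1 value was 6.35, 6.20 and 5.96 in the control arrays and 8.07, 7.49 and 7.72 in the N1ICD arrays. The difference was 1.59 ± 0.17 (SE, n = 3 per group, adjusted p = 0.000889, limma). The groups did not overlap; the exact two-sided permutation test gave p = 0.1, the smallest that 20 assignments of 3 against 3 allow. Array medians over all genes lay between 6.14 and 6.24. The 9 neuroendocrine markers analysed had mean values from 8.46 to 12.13, and Insm1 fell while Chga and Ncam1 rose. Of 7 macrophage markers 1 rose (Lyz2), of 6 fibroblast markers Pdgfrb rose and Pdgfra fell, and of 5 endothelial markers Kdr and Tek rose while Pecam1, Cdh5 and Vwf did not pass the test. The part of other cell types in the results below was not tested, and in RNA of whole samples fewer cells of a type and less RNA per cell cannot be told apart.

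With the active Notch1 domain, 29 of the 30 genes missed the threshold, 1 rose and 0 fell (limma, adjusted over all 22180 genes, threshold 0.05). The gene that rose was Ddit4, an inhibitor of mTORC1 signalling that is induced by low oxygen and other stresses. The share called, 3.33%, rests on 1 gene and is near the background for higher calls. Of all genes, 7.10% passed in either direction, 3.82% as higher and 3.27% as lower. That background split depends on centring, with 848 genes higher and 726 lower as deposited and 730 and 948 when the arrays were set to equal medians. At an unadjusted p under 0.05 (limma) there were 5 of the 30, against 4407 of the 22180 genes. The 5 were Ddit4, Ldhb, Epas1, Pfkfb3 and Slc16a1. The arrays of the 2 groups did not overlap for 8 of the 30, 6 with N1ICD higher and 2 with N1ICD lower, against 26.1% of all genes, so this share is near the background as well. Taken without sign, the differences of the 30 genes had a median of 0.21, against 0.14 over all genes. With sign, their median was 0.15, against -0.02 over all genes, and they ran from -0.57 for Pfkfb3 to 1.00 for Ddit4. Of the 30, 22 were above 0 (73.3%, against 45.5% of all genes).

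**Figure D1:**
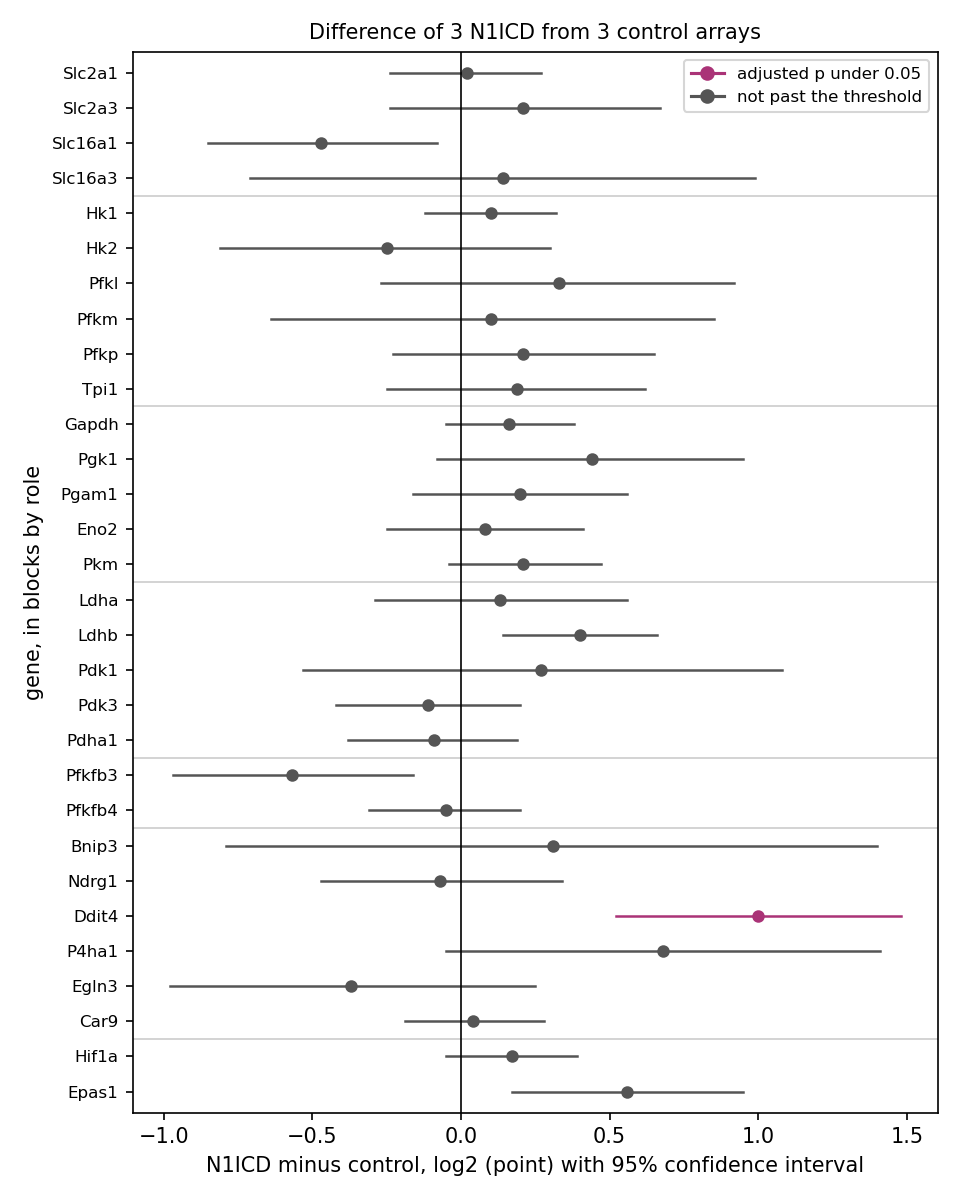
Difference between 3 N1ICD and 3 control arrays for the 30 genes, in log2 units (x axis), with 95% confidence intervals from limma; genes are in blocks by role. Ddit4, at 1.00, is the gene past the threshold, and the intervals of Bnip3 (-0.79 to 1.40), Slc16a3 (-0.71 to 0.99) and Pdk1 (-0.53 to 1.08) are the widest of their blocks.

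Among the HIF alpha subunits neither passed the test, though in both the groups did not overlap. Epas1, which encodes HIF-2 alpha, was measured at 5.34, 4.98 and 4.86 in control and 5.92, 5.46 and 5.49 in N1ICD cells. All of these values lay below the array medians of 6.14 to 6.24. Every N1ICD array lay above every control array, with replicate 1 the highest of its group in both. The difference was 0.56 ± 0.17 (adjusted p = 0.098). Hif1a, the subunit for which the response is named, was at 9.42, 9.53 and 9.60 in control and 9.61, 9.69 and 9.76 in N1ICD cells. The groups were separated by no more than 0.01, and the difference of 0.17 ± 0.10 had an adjusted p of 0.393. A second, dimmer Hif1a probe set read 5.58, 5.74 and 5.51 against 6.02, 6.60 and 6.22, a difference of 0.67 ± 0.17 with an adjusted p of 0.126 over all probe sets, so the 2 probe sets differ in size.

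Ddit4 was the clearest of the hypoxia response genes. Its values were 9.15, 9.52 and 9.77 in the control arrays and 10.16, 10.85 and 10.44 in the N1ICD arrays. The groups did not overlap, with control 1 the lowest array and N1ICD 2 the highest. The difference was 1.00 ± 0.21, a 2.00-fold rise (95% confidence interval 0.52 to 1.48 on the log2 scale; adjusted p = 0.0263). The size held when any array was left out, at 0.82 to 1.16, but the call did not: it was lost without control 1 (adjusted p = 0.0673), control 2 (0.0721), N1ICD 2 (0.0832) or N1ICD 3 (0.0725), where fewer arrays also leave a weaker test. It was lost as well when all 41345 probe sets were tested (0.0996).

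P4ha1, a catalytic subunit of the collagen prolyl 4-hydroxylase, read 7.71, 8.71 and 8.66 in control and 8.58, 9.57 and 8.97 in N1ICD cells. Its difference of 0.68 ± 0.32 did not pass (adjusted p = 0.288), and N1ICD 1 lay below 2 of the 3 control arrays. Bnip3, a mitophagy receptor of the outer mitochondrial membrane, read 7.15, 8.77 and 8.50 in control and 7.83, 9.29 and 8.21 in N1ICD cells. The groups overlapped, and its spread of 1.62 among the controls was several times its difference of 0.31 ± 0.48 (adjusted p = 0.797). Egln3, the oxygen-sensing prolyl hydroxylase PHD3, read 8.47, 8.76 and 9.04 in control and 7.96, 9.03 and 8.18 in N1ICD cells. N1ICD 1 and 3 were below all controls while N1ICD 2 was just below the highest control, and the difference was -0.37 ± 0.27 (adjusted p = 0.526). Ndrg1, a stress-responsive gene often used as a hypoxia marker, and Car9, a cell-surface carbonic anhydrase, differed by -0.07 ± 0.18 and 0.04 ± 0.10. Car9 is among the most tightly HIF-dependent genes known in other tumours. Here its brighter probe set lay between 5.65 and 5.91 in all 6 arrays, below the array medians of 6.14 to 6.24. A second Car9 probe set read 5.32, 5.14 and 5.31 in control and 5.63, 6.06 and 5.21 in N1ICD cells, with overlapping groups and a difference of 0.37 ± 0.21 (adjusted p = 0.528 over all probe sets); the mean of both gave 0.21 ± 0.13. The sign of the Car9 difference turns under other scalings. For Ndrg1 the difference was 0.00 under cyclic loess, 0.04 with the mean over probe sets and 0.05 with array weights.

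Of the 4 transporters none passed the test. Slc2a1, the main glucose transporter GLUT1, read 12.74, 12.98 and 13.02 in control and 12.92, 13.02 and 12.85 in N1ICD cells, and its difference of 0.02 (95% confidence interval -0.24 to 0.27) turns in sign under other scalings. Slc2a3, the high-affinity transporter GLUT3, read 6.39, 6.77 and 6.67 against 6.48, 7.26 and 6.73, a difference of 0.21 ± 0.20. Both glucose transporters overlapped between groups. Slc16a1, the lactate and pyruvate transporter MCT1, read 8.88, 8.96 and 9.10 in control and 8.13, 8.65 and 8.76 in N1ICD cells. All N1ICD arrays were below all controls, with a difference of -0.47 ± 0.17 that missed the threshold (adjusted p = 0.16). Slc16a3, the lactate exporter MCT4, read 7.00, 7.89 and 7.83 against 7.02, 8.48 and 7.64. The lowest arrays of the 2 groups were nearly equal and the N1ICD arrays spanned 1.46, against a difference of 0.14 ± 0.37.

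The enzymes of the glycolytic chain differed by at most 0.44, and 0 of 11 passed the test, also at an unadjusted p under 0.05 (limma). Over all genes, 4407 of 22180 had an unadjusted p under 0.05. In the upper part, hexokinases trap glucose as its phosphate. Hk1 read 8.20, 8.15 and 8.26 in control and 8.39, 8.28 and 8.24 in N1ICD cells (difference 0.10 ± 0.09), and Hk2, the inducible form, 6.80, 7.36 and 7.35 against 6.57, 7.43 and 6.76 (-0.25 ± 0.24). Hk2 had the lower array mean in N1ICD cells although N1ICD 2 was the highest of all 6 arrays.

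Phosphofructokinase sets the pace of the pathway, and its 3 isoforms all had differences above 0 without passing. Pfkl read 8.43, 9.13 and 8.96 against 8.77, 9.70 and 9.03 (0.33 ± 0.26). Pfkp read 8.75, 9.08 and 9.10 against 8.84, 9.59 and 9.13 (0.21 ± 0.19). Pfkm, the dimmest, read 4.80, 4.90 and 5.76 against 4.71, 5.23 and 5.83 (0.10 ± 0.32), and replicate 3 was the highest of its group in both. In each isoform the groups overlapped. The triose isomerase Tpi1 differed by 0.19 ± 0.19.

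In the lower part, Pgk1 and Pkm make ATP directly. Pgk1 read 10.51, 11.11 and 10.97 in control and 11.00, 11.76 and 11.15 in N1ICD cells, the largest difference of the chain at 0.44 ± 0.22 (adjusted p = 0.334). N1ICD 1 fell between the controls. Pkm, pyruvate kinase, read 11.62, 11.82 and 11.75 against 11.84, 12.11 and 11.90, so the groups did not overlap, by 0.02 (0.21 ± 0.11, adjusted p = 0.338). Gapdh also did not overlap, with 12.84 to 12.92 in control and 12.97 to 13.15 in N1ICD cells (0.16 ± 0.09, adjusted p = 0.402). Pgam1 and Eno2, the neuronal enolase, differed by 0.20 ± 0.16 and 0.08 ± 0.15. A second, dimmer Pgam1 probe set differed by -0.07 ± 0.14 in the fit over all probe sets, and the mean of both gave 0.07 ± 0.13. Several of these genes have many near-identical processed pseudogenes in the mouse genome, so their probe sets may read more than 1 locus; Gapdh had 3 probe sets, with differences of 0.16, 0.16 and 0.23.

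At the branch point of pyruvate, lactate dehydrogenase exists as muscle-type Ldha and heart-type Ldhb. Ldha read 7.51, 7.94 and 7.85 in control and 7.63, 8.27 and 7.80 in N1ICD cells, with overlapping groups and a difference of 0.13 ± 0.18. Ldhb read 6.13, 6.48 and 6.34 against 6.73, 6.67 and 6.76. All N1ICD arrays were above all controls and lay within 0.09 of each other, and the difference of 0.40 ± 0.11 fell short of the threshold over all genes (adjusted p = 0.0772); it passed when the dimmest 25% or 50% of the genes were not tested (adjusted p = 0.0417 and 0.0245). Pdk1, which switches off pyruvate dehydrogenase in hypoxia, read 7.48, 8.62 and 8.36 against 7.97, 9.10 and 8.22, with a spread within each group of 1.14 and 1.13 and a difference of 0.27 ± 0.35. Pdk3 and the pyruvate dehydrogenase subunit Pdha1 differed by -0.11 ± 0.13 and -0.09 ± 0.13.

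The bifunctional enzymes Pfkfb3 and Pfkfb4 make fructose 2,6-bisphosphate, an activator of phosphofructokinase. Pfkfb3 read 7.18, 7.61 and 7.24 in control and 6.57, 7.12 and 6.64 in N1ICD cells. The groups did not overlap, by 0.06, and replicate 2 was the highest in both. Its difference of -0.57 ± 0.18 was the largest of the 30 in the downward direction and missed the threshold (adjusted p = 0.107); with the dimmest 50% of the genes not tested it passed (adjusted p = 0.0438). Pfkfb4 differed by -0.05 ± 0.11.

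**Figure D2:**
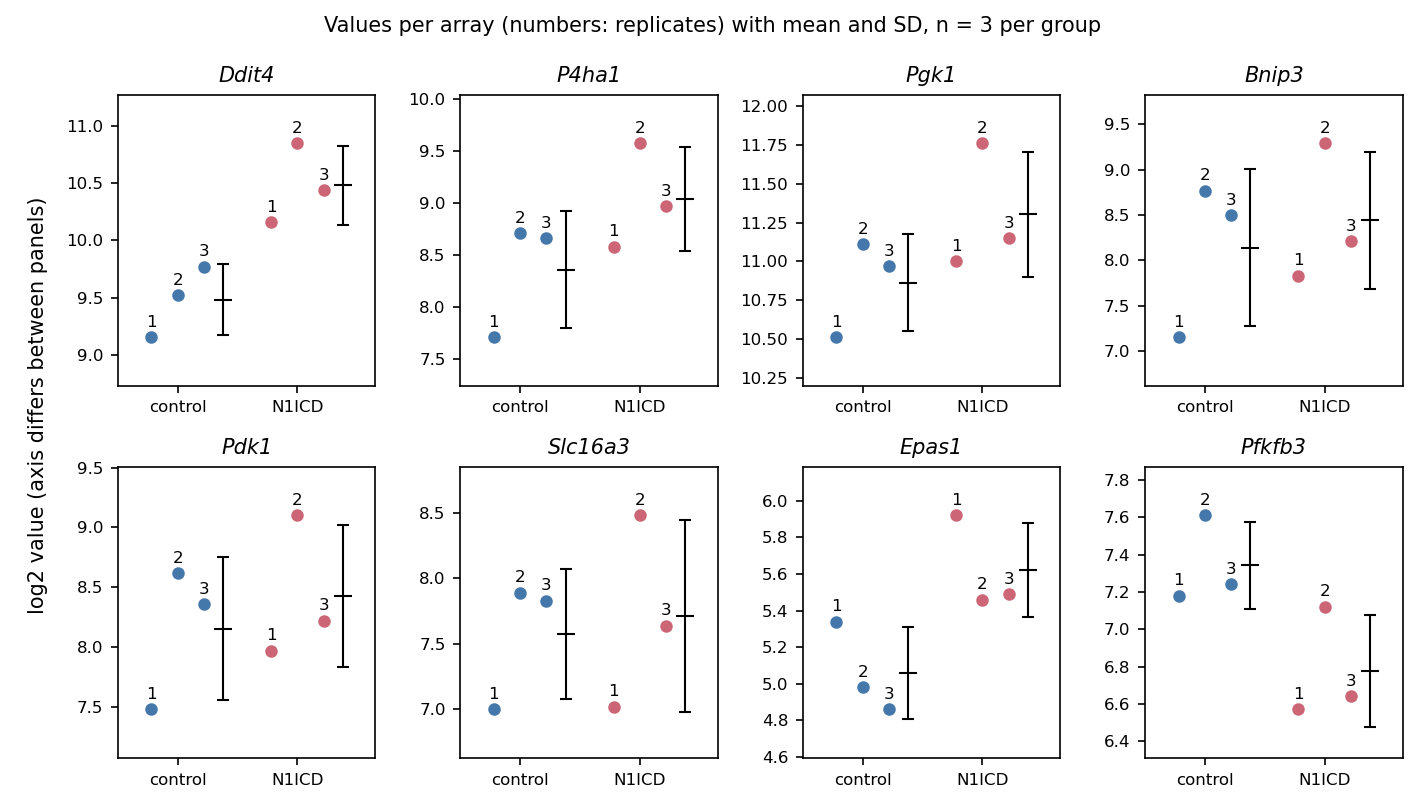
Log2 values (y axis, its own range in each panel) of 8 of the genes in 3 control and 3 N1ICD arrays; points are arrays, numbered by replicate, and the bar at the right of each group is its mean with SD. Ddit4, Epas1 and Pfkfb3 separate the groups, whereas in P4ha1, Pgk1, Bnip3, Pdk1 and Slc16a3 control 1 is far below the other controls and N1ICD 2 far above the other N1ICD arrays.

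The 30 genes differed more between arrays of 1 group than most genes did. Their median within-group SD was 0.271, against 0.149 over all genes, and the largest were those of Bnip3 (0.82), Slc16a3 (0.63), Pdk1 (0.59), Pfkm (0.55) and P4ha1 (0.53). The spread had a common direction. Control 1 was the lowest of the controls for 27 of the 30 (90%), against 35.2% of all genes; the exceptions were Hk1, Ndrg1 and Epas1. N1ICD 2 was the highest N1ICD array for 22 (73.3%), against 29.5% of all genes, and N1ICD 1 the lowest for 22 (73.3%), against 37.2%. Control 2 was the highest control for 17 (56.7%), against 27.2% of all genes, so that in both groups replicate 1 was most often the lowest and replicate 2 most often the highest. Both patterns, control 1 lowest and N1ICD 2 highest, met in 21 of the 30 (70%), in 22 of 78 further genes of these pathways (28.2%) and in 9.49% of all genes. The mean over the 30 genes was 8.30, 8.66 and 8.66 in the control arrays and 8.44, 8.95 and 8.63 in the N1ICD arrays, while the mean over all genes lay between 6.42 and 6.44 in every array. These arrays were singled out after their values were seen, and the genes share the 6 arrays and are not independent of each other.

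With a margin of at least 0.3 on both sides, also chosen after the values were seen, 76 of the 22180 genes had control 1 below both other controls and N1ICD 2 above both other N1ICD arrays (0.343%). Of the 30 genes, 11 did so (36.7%): Bnip3, P4ha1, Pdk1, Slc16a3, Hk2, Pfkl, Pgk1, Tpi1, Ddit4, Ldha and Pfkp. Of the 78 further pathway genes, 9 did so (11.5%): Fam162a, Aldoc, Adm, Plod1, Vegfa, Bhlhe40, Ak4, Kdm3a and Plod2. For Bnip3 the margins were 1.36 below and 1.09 above, and for Pdk1 0.88 and 0.87. The HIF subunits did not share the pattern. In Hif1a N1ICD 3 was the highest of all 6 arrays, and in Epas1 control 1 was the highest control and N1ICD 2 the lowest N1ICD array.

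The lean of the 30 genes toward higher values was smaller without control 1 or without N1ICD 2. Their median difference of 0.15 became 0.02 without control 1 and 0.01 without N1ICD 2, with 17 and 16 of the 30 above 0; leaving out any of the other 4 arrays gave 0.18 to 0.27. Leaving out a low control or a high N1ICD array lowers a difference by construction, and what set the arrays of a group apart was not tested. Bnip3 went from 0.31 to -0.19 and -0.12, Slc16a3 from 0.14 to -0.15 and -0.24 and Pdk1 from 0.27 to -0.06 and -0.06 without control 1 and without N1ICD 2. P4ha1 stayed above 0 in all 6 cases (0.35 to 0.91), as did Pgk1 (0.21 to 0.59).

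**Figure D3:**
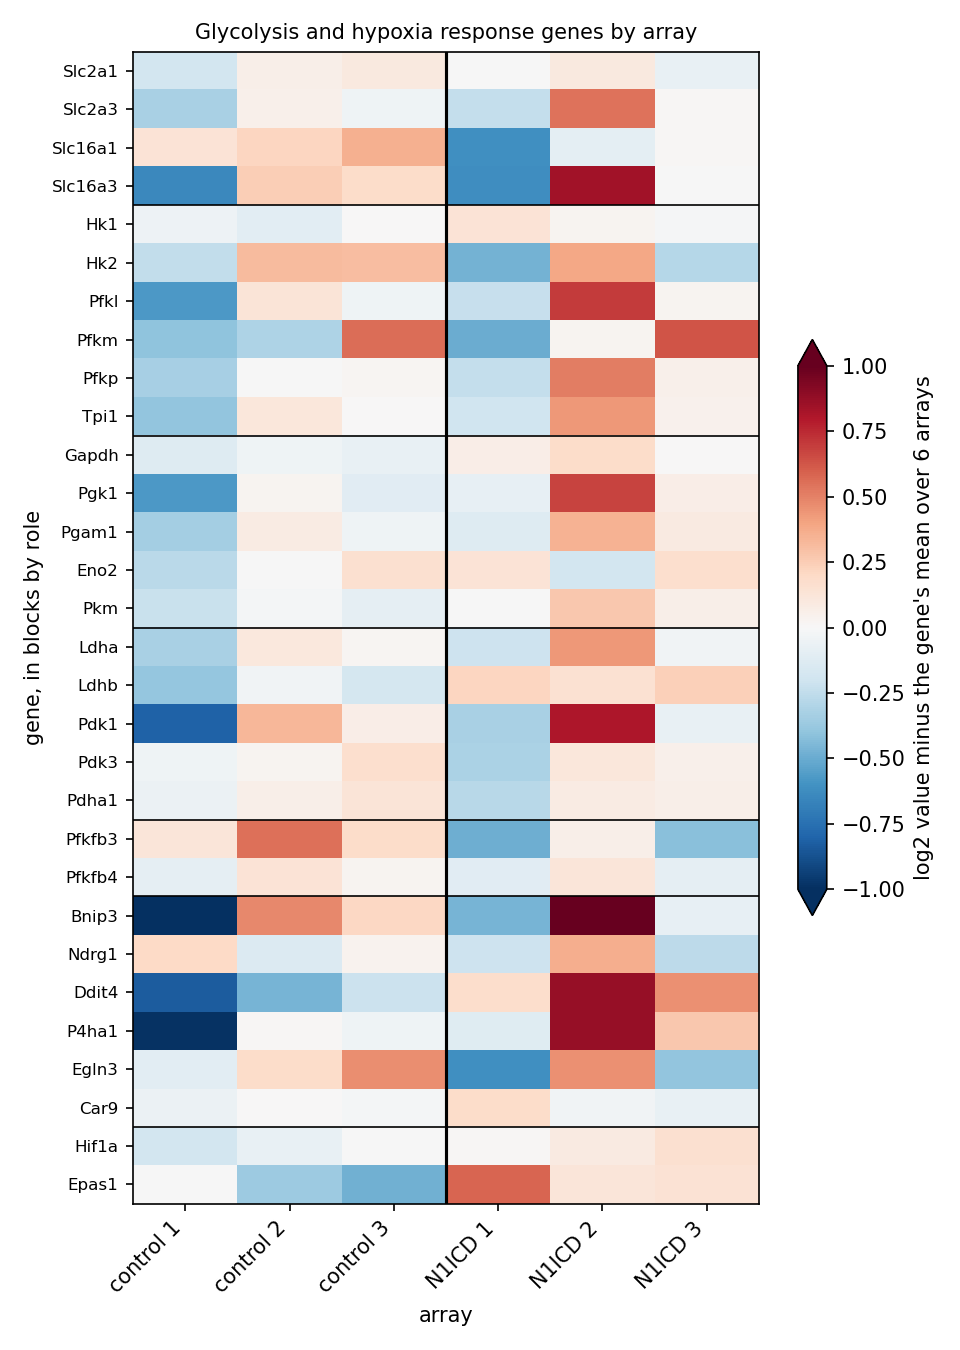
Heat map of the 30 genes (rows, in blocks by role) in the 6 arrays (columns, controls left of the line), coloured by the log2 value minus the mean of that gene over the 6 arrays; colours saturate beyond 1. Control 1 is the bluest control in 27 of the 30 rows and N1ICD 2 the reddest N1ICD array in 22.

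Outside the 35 genes, 78 of 88 further genes of these pathways were analysed. The list was drawn up by pathway, with earlier results of these data known, so its share of calls is a description. Of the 78, 5 rose and 6 fell (14.1% called, against the 7.10% of all genes given above), and 67 missed the threshold; the median difference was 0.02. The largest change was in Aldoc, the brain-type aldolase of glycolysis. It read 7.37, 8.10 and 8.32 in control and 11.47, 11.95 and 11.59 in N1ICD cells, so that all N1ICD arrays lay more than 3 log2 units above all controls. The difference was 3.75 ± 0.24, a rise of 13.4-fold (adjusted p = 6.76e-05), and it held at 3.47 to 3.94 whichever array was left out. Aldoa, the main aldolase of most cells, was not analysed. No other glycolytic isozyme approached this size. Of 20 isozymes and partners, the insulin-responsive transporter Slc2a4 also rose (0.43 ± 0.09, adjusted p = 0.0249), a call lost without any 1 of the 6 arrays. All 6 Slc2a4 values, from 5.45 to 5.95, lay below the array medians of 6.14 to 6.24. Gpd1, which diverts triose phosphate to glycerol 3-phosphate, fell (-0.62 ± 0.12, adjusted p = 0.0183), a call lost without 5 of the 6 arrays. The mean of the 2 Gpd1 probe sets gave -0.42 ± 0.12, which missed the threshold (limma, adjusted p = 0.0793).

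Of 27 further hypoxia response genes, 3 rose and 3 fell. Those that rose were Plod2, a collagen lysyl hydroxylase, Stc2, a secreted stanniocalcin, and P4ha2, a second catalytic subunit of the enzyme that P4ha1 belongs to. Plod2 read 7.28, 7.60 and 7.59 in control and 8.34, 9.06 and 8.57 in N1ICD cells (1.16 ± 0.19, adjusted p = 0.00855). P4ha2 read 6.19, 6.38 and 6.58 against 7.03, 7.50 and 7.32 (0.90 ± 0.15, adjusted p = 0.0105). Stc2 differed by 1.10 ± 0.20 (adjusted p = 0.014), a call lost without control 2 or N1ICD 3. In the 3 genes the groups did not overlap.

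The hypoxia response genes that fell were Car12, a second cell-surface carbonic anhydrase, Cxcr4, a chemokine receptor, and Lox, which crosslinks collagen. Car12 read 7.14, 7.26 and 7.44 in control and 5.71, 5.90 and 6.09 in N1ICD cells (-1.38 ± 0.13, adjusted p = 0.000502). Cxcr4 read 9.29, 9.19 and 9.38 against 8.62, 8.09 and 8.19 (-0.99 ± 0.15, adjusted p = 0.00605). Lox was just past the threshold (-0.73 ± 0.18, adjusted p = 0.0495) and lost it without 5 of the 6 arrays. Vegfa, the angiogenic growth factor, read 9.05, 9.88 and 9.59 against 10.31, 10.84 and 10.03, without overlap, and did not pass (0.89 ± 0.25, adjusted p = 0.0836).

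Among 11 partners and regulators of HIF, Cited2, which competes with HIF for the coactivators p300 and CBP, fell: 10.35, 10.24 and 10.32 in control against 9.73, 9.34 and 9.56 (-0.76 ± 0.12, adjusted p = 0.00734). The other 10, including Arnt, Vhl, Egln1, Egln2 and Hif1an, did not pass, with differences from -0.30 for Hif1an to 0.13 for Vhl. Of 9 genes of pyruvate entry into mitochondria, Pdp1, the phosphatase that switches pyruvate dehydrogenase on, fell (-0.65 ± 0.13, adjusted p = 0.0196; lost without control 2, control 3 or N1ICD 2). Pdk4, a kinase with the opposite action, differed by 0.62 ± 0.16 and did not pass (adjusted p = 0.0614). None of 11 genes of the pentose phosphate pathway and gluconeogenesis passed, with differences from -0.29 to 0.15. Of them 1, Pcx, had an unadjusted p under 0.05 (limma), as did 4407 of all 22180 genes. With all 41345 probe sets tested, Aldoc, Plod2, Car12, Cxcr4 and Cited2 kept their calls and the other 6 of the 11 lost theirs.

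**Figure D4:**
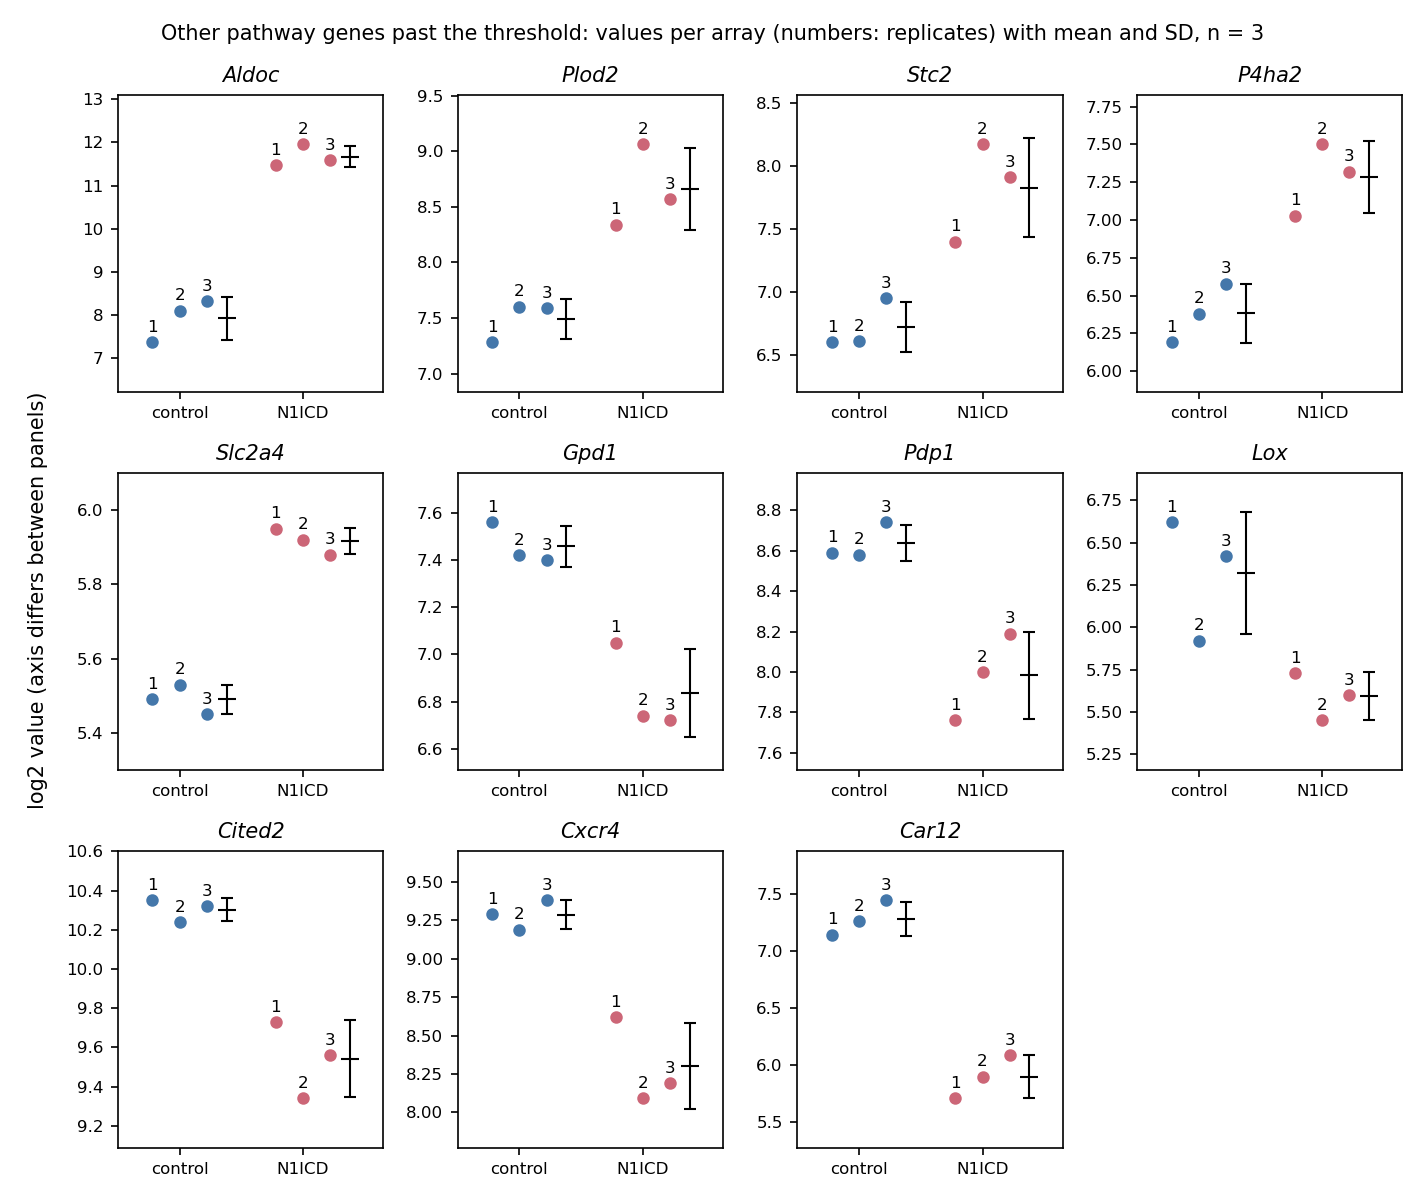
Log2 values (y axis, its own range in each panel) of the 11 further pathway genes past the threshold, in order of their difference; points are arrays, numbered by replicate, with the mean and SD of 3 arrays at the right of each group. Aldoc moves by 3.75 and Car12 by -1.38, and no panel has overlapping groups.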

How the data were processed

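Total RNA of 6 samples was measured, 1 array each. The values are the log2 values the authors deposited, made with RMA per the submitters' processing notes, which name no version. Base 2, RMA's own, was taken, as the sources used here do not give the base; nor do they give a genome build. Because RMA forces 1 distribution on all arrays, it hides a change in total RNA, and it shrinks differences of dim probe sets. Of 41345 probe sets, 23521 were paired with 1 gene symbol in the platform annotation; the brightest by 6-array mean stood for its gene, with no filter. N1ICD minus control was fitted on all 22180 genes (R 4.3.3; limma 3.58.1, functions lmFit and eBayes; tests were two-sided, p-values adjusted by Benjamini-Hochberg, threshold 0.05), without a block. Each ± after a difference is the SE of that fit. The p-values measure the spread between these samples, and the number of arrays limits the precision. The fit was tested on simulated data. Alternatives were other scalings, filters, probe set rules, variance models, a stricter threshold, a block and leaving out each array.

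The members and lists were chosen with earlier results of these data known. Every listed gene is accounted for by role; genes past the threshold, those at regulatory steps and the largest of each role group are given by array, and up to 6 further pathway genes past the threshold in each direction are named. Hypoxia genes with a wide spread between arrays, and Vegfa, Pdk4 and Pcx, were named after their values were seen. The R package data.table was version 1.17.8; figures were drawn with matplotlib 3.10.9.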

Additional observations from a re-analysis of the deposited data

How the results depend on the processing

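The listed genes called higher and lower stayed at Ddit4 alone under quantile normalization, equal array medians, cyclic loess, the mean over probe sets, an intensity trend with robust eBayes, and array weights. With the dimmest 25% left out 2 of 30 were higher (Ldhb and Ddit4), against 1008 higher and 1053 lower of 16635 genes. With the dimmest 50% left out 2 of the 27 still tested were higher (Ldhb and Ddit4) and 1 lower (Pfkfb3). Over the 11090 genes then tested, 908 were higher and 1289 lower. With all probe sets tested 0 were higher (Ddit4 at adjusted p = 0.0996), and 0 at an adjusted p under 0.01; more tests and a stricter threshold make fewer calls by construction. Leaving out each array gave 0 to 1 higher and 0 lower. For the further pathway genes, higher calls were 8 without the dimmest 25%, 8 with trend and robust, 2 with all probe sets and 2 at 0.01, and 3 to 5 leaving out each array; lower calls were 3 with all probe sets, 3 at 0.01 and 3 to 5 leaving out each array. Over all genes, higher calls were 460 at 0.01 and 548 to 709 leaving out each array. Lower calls were 1289 without the dimmest 50%, 1227 with trend and robust, 208 at 0.01 and 275 to 585 leaving out each array. With all 41345 probe sets tested, 548 probe sets were higher and 257 lower, which are counts of probe sets and not of genes. For changes not explained by fewer or more tests, the cause was not tested.

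Signs turned only in values near 0 or with a wide spread. Slc2a1 was -0.04 and Car9 -0.01 under quantile normalization and under equal medians. Ndrg1 was 0.00 under cyclic loess, 0.04 with the mean over probe sets and 0.05 with array weights. Leaving out each array in turn, the lowest and highest differences were -0.07 and 0.07 for Slc2a1, 0.00 and 0.39 for Slc2a3, -0.24 and 0.49 for Slc16a3, -0.18 and 0.41 for Pfkm, -0.04 and 0.19 for Eno2, and -0.05 and 0.27 for Ldha. They were -0.06 and 0.51 for Pdk1, -0.19 and 0.02 for Pdk3, -0.16 and 0.02 for Pdha1, -0.12 and 0.00 for Pfkfb4, -0.19 and 0.62 for Bnip3, -0.27 and 0.05 for Ndrg1 and -0.04 and 0.09 for Car9.

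The main fit did not take the replicate numbers as pairs, and whether they mark pairs is not settled. Deviations from the group means correlated by 0.23, 0.01 and 0.20 across genes for numbers 1, 2 and 3. Between unlike numbers the correlations ran from -0.23 to 0.06. With the replicate number as a block, 2 of the 30 listed genes were higher (Ddit4, and Epas1 at adjusted p = 0.023) and 1 lower (Pfkfb3 at adjusted p = 0.0213). Of all 22180 genes, 814 were higher and 704 lower with the block. Of the further pathway genes 7 were then higher, with Vegfa (adjusted p = 0.0417) and Pdk4 (adjusted p = 0.0382) added to the 5, and the same 6 were lower. Arrays numbered 1 and 3 correlated best with their own number, and those numbered 2 did not. With the block, the SE went from 0.48 to 0.20 for Bnip3, from 0.37 to 0.16 for Slc16a3 and from 0.35 to 0.15 for Pdk1. For P4ha1 it went from 0.32 to 0.14, with the threshold still missed (limma, adjusted p = 0.0521). For Ndrg1 it was 0.18 without and 0.19 with the block.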
